A study of Ovis aries with 7 samples.

Results

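The genes described here act on N6-methyladenosine (m6A), a methyl mark on adenosines inside messenger RNA, in 8-cell embryos of the sheep (Ovis aries). They are 10 genes chosen by name from the 31304 rows of the expression table: the writers METTL3, METTL14 and WTAP, the readers YTHDC1, YTHDC2, YTHDF1, YTHDF2 and YTHDF3, and the erasers ALKBH5 and FTO. All 10 had a row. The samples are 4 libraries of somatic cell nuclear transfer (SCNT) embryos, in which the nucleus of a somatic cell is placed in an egg without its own nucleus, and 3 libraries of embryos made by in vitro fertilization (IVF). PolyA RNA of both groups was amplified by low-input Smart-seq2 chemistry. The labels give no breed, donor cell, parent or number of embryos per library. Values used here are those of the 3 IVF libraries, because the other 4 columns carry names that no sample label uses, and SCNT libraries were not analysed here. What follows is therefore the level of each gene in IVF embryos and its variation between their libraries, with no comparison of SCNT with IVF.

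m6A is laid down in the nucleus by a complex in which METTL3 carries the catalytic site, METTL14 holds the RNA, and WTAP anchors the pair to nuclear speckles. Proteins with a YTH domain bind the mark: YTHDC1 acts in the nucleus on splicing and export, YTHDC2 is a helicase known from meiotic germ cells of the mouse, and the 3 YTHDF proteins act in the cytoplasm on stability and translation. ALKBH5 and FTO remove the methyl group. In zebrafish, YTHDF2 takes part in the clearance of maternal RNA around genome activation. A sheep embryo at this stage also lies in that period.

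The values are TPM, a unit of transcript abundance scaled for the length of each gene and for the total of its library, so that levels of different genes can be set side by side within a library. Means are given with the SD over 3 libraries. The deposited TPM give no sequencing depth, so no counting interval is given and a low value cannot be told from sampling loss. The libraries held 9014, 9379 and 8766 gene symbols at 1 TPM or more in IVF replicates 1, 2 and 3. Markers of the embryo were present: ARGFX, a homeobox gene of early embryonic transcription, reached 376, 1022 and 444 TPM in replicates 1, 2 and 3. In all, 9 of 10 embryo and oocyte markers had at least 1 TPM in every library, with NLRP5 (1.36, 0.221 and 0.406 TPM) the exception. Of 8 fibroblast markers 1 did so, VIM, and the summed level of the list was between 10.2 and 15.1 TPM. Among the 7 of 8 cumulus and granulosa markers that had a row (CYP19A1 had none), only HAS2 did so. Their sum was between 8.88 and 16.5 TPM, with PTX3 and HSD17B1 listed at 0. Of 6 sperm markers none did, their sum was between 0.755 and 3.03 TPM, and PRM1, AKAP4, SPEM1 and ACTL7A were listed at 0. All 4 marker sums were highest in replicate 2. For the embryo and oocyte list this rested on ARGFX, without which the sums were 2042, 1572 and 1431 TPM in replicates 1, 2 and 3, and 5 of its 10 markers were highest in replicate 2. Whether any of these markers bear on the values of replicate 2 below was not tested.

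In IVF embryos 9 of the 10 m6A genes had at least 1 TPM in every library. FTO was the exception. Over all 16526 gene symbols, 49.0% met that threshold. The median of the members' mean levels was 15.1 TPM, against 1.58 TPM for all symbols and 8.59 TPM for the 9190 symbols with a mean of at least 1 TPM. Members other than FTO lay between the percentiles 65.9 (METTL3) and 91.7 (WTAP) of all symbols ranked by mean TPM, and FTO lay at 32.7. The members together took 0.0175, 0.0244 and 0.0155% of all TPM in replicates 1, 2 and 3.

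**Figure D1:**
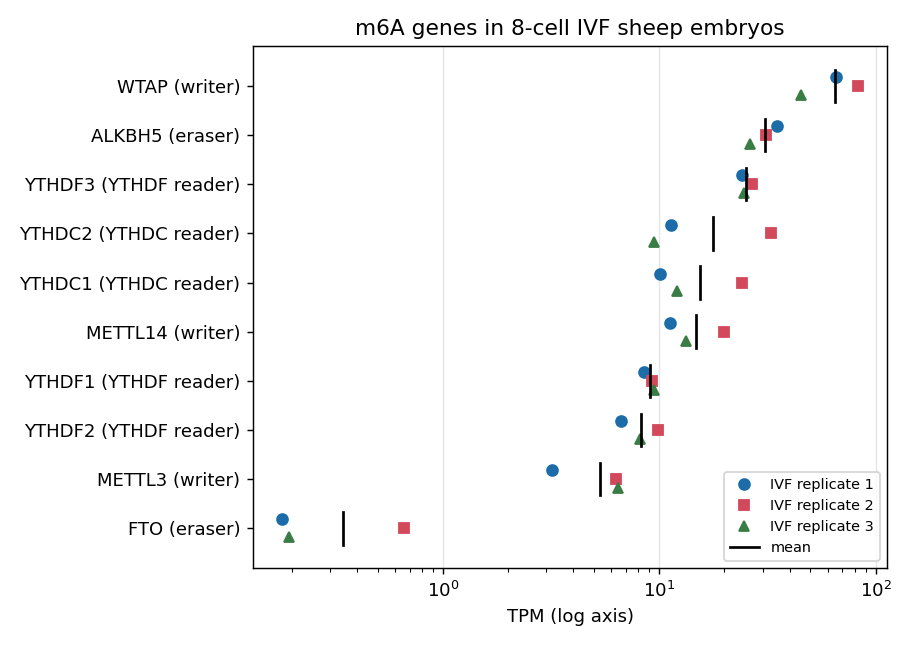
TPM on a log axis of each m6A gene in the 3 IVF libraries (points) with the mean (bar), ordered by mean. WTAP lies highest at a mean of 64.6 TPM, FTO lowest at 0.344 TPM, and the points of YTHDF1 and YTHDF3 lie closest together.

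The writers were expressed unevenly, with the adaptor far above the catalytic subunit. WTAP was at 65.3, 83.3 and 45.2 TPM in replicates 1, 2 and 3, a mean of 64.6 ± 19.1 TPM. METTL14 was at 11.2, 20.0 and 13.2 TPM, a mean of 14.8 ± 4.60 TPM. METTL3 was at 3.19, 6.27 and 6.47 TPM, a mean of 5.31 ± 1.84 TPM, with replicate 1 about 2.03-fold below replicate 3. The ranges of these 3 genes did not overlap, so the order WTAP, METTL14, METTL3 stood in every library. On the log2(TPM + 1) scale METTL14 exceeded METTL3 by 1.54, 1.53 and 0.93 in replicates 1, 2 and 3, a mean difference of 1.34 ± 0.35. WTAP exceeded METTL3 by 3.99, 3.54 and 2.63, a mean difference of 3.38 ± 0.69. Both differences were larger in replicate 1, where METTL3 was lowest, than in replicate 3. In ratios of mean TPM, METTL14 stood 2.79 times and WTAP 12.2 times above METTL3. These are RNA levels, and the proteins of the complex were not measured.

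Of the cytoplasmic readers, YTHDF1 and YTHDF3 were the steadiest of all members in TPM as deposited. For YTHDF1 this rested on the scaling. After libraries were rescaled by the median of ratios, its log2(TPM + 1) range was 0.381, above 0.320 for YTHDF2. After quantile normalization it was 0.375, above 0.335 for ALKBH5 and 0.323 for YTHDF2. The range of YTHDF3 was 0.247 and 0.135 under these 2 settings. YTHDF3 was at 24.1, 26.9 and 24.6 TPM in replicates 1, 2 and 3, a mean of 25.2 ± 1.5 TPM and a coefficient of variation of 5.95%. YTHDF1, known for promoting translation, was at 8.46, 9.21 and 9.45 TPM, a mean of 9.04 ± 0.515 TPM and a coefficient of variation of 5.70%. YTHDF2, which recruits the CCR4-NOT deadenylase to methylated RNA, was at 6.63, 9.80 and 8.12 TPM, a mean of 8.18 ± 1.59 TPM. YTHDF3 was thus the leading paralog in all 3 libraries, and the ranges of YTHDF2 and YTHDF1 overlapped. YTHDF3 exceeded YTHDF1 by 1.38 ± 0.08 on the log2(TPM + 1) scale, with single libraries between 1.29 and 1.45. YTHDF2 lay below YTHDF3 in 3 of 3 libraries, with a difference of -1.52 ± 0.18. YTHDF2 minus YTHDF1 was -0.31, 0.08 and -0.20 in replicates 1, 2 and 3, a mean of -0.14 ± 0.20, which is smaller than its spread. The 3 genes are close paralogs, and the sources used here do not say how reads shared between them were counted.

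In TPM as deposited, the YTHDC readers were the most variable among members above 1 TPM, and replicate 2 set that spread. YTHDC2 was at 11.3, 32.7 and 9.43 TPM in replicates 1, 2 and 3, a mean of 17.8 ± 12.9 TPM, or 10.4 TPM without replicate 2. YTHDC1 was at 10.04, 24.0 and 12.1 TPM, a mean of 15.4 ± 7.56 TPM, or 11.1 TPM without replicate 2. Replicate 2 was highest for both genes, by 1.99-fold over the next library for YTHDC1 and 2.90-fold for YTHDC2. Rescaling by the median of ratios kept replicate 2 highest, with smaller gaps. YTHDC1 then had 20.2 rescaled TPM in replicate 2 against 13.3 in replicate 3, and YTHDC2 27.5 against 11.8 in replicate 1. After that rescaling METTL3 had a log2(TPM + 1) range of 0.901, above 0.880 for YTHDC1. YTHDC1 minus YTHDC2 was -0.15, -0.43 and 0.33 on the log2(TPM + 1) scale in replicates 1, 2 and 3. Its mean of -0.08 ± 0.38 was smaller than its spread and became 0.09 without replicate 2, so no order of the pair was seen. Their sum was 33.2 ± 20.4 TPM, or 21.4 TPM without replicate 2.

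The erasers stood far apart, with FTO under 1 TPM in every library and ALKBH5 second among the members by mean, though below YTHDC2 in replicate 2. ALKBH5, a nuclear demethylase, was at 35.0, 31.0 and 26.1 TPM in replicates 1, 2 and 3, a mean of 30.7 ± 4.45 TPM. FTO was at 0.179, 0.658 and 0.193 TPM, a mean of 0.344 ± 0.272 TPM, or 0.186 TPM without replicate 2. ALKBH5 exceeded FTO by 4.93, 4.27 and 4.51 on the log2(TPM + 1) scale, a mean difference of 4.57 ± 0.34. The added 1 TPM is larger than FTO's own level, so the size of this difference rests on it. The difference was 6.27 with a pseudocount of 0.1 and 2.74 with a pseudocount of 5. Its sign could not change with the pseudocount, since ALKBH5 was above FTO in every library. The long noncoding RNA gene LOC114117875, which lies inside FTO in the RefSeq gene table, was at 0.279, 0.351 and 0.252 TPM. It was thus above FTO in replicates 1 and 3 and below it in replicate 2. Another such gene inside FTO, LOC132657737, was at 0.0503 TPM or less, and a tRNA gene there was listed at 0. Whether their exons overlap those of FTO was not tested, and the sources used here do not say whether counting used strand, so the value of FTO is uncertain to that extent. METTL14 partly overlaps LOC132659919, which was at 0.0676 TPM or less in every library. The other 8 members overlap no gene in that table.

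**Figure D2:**
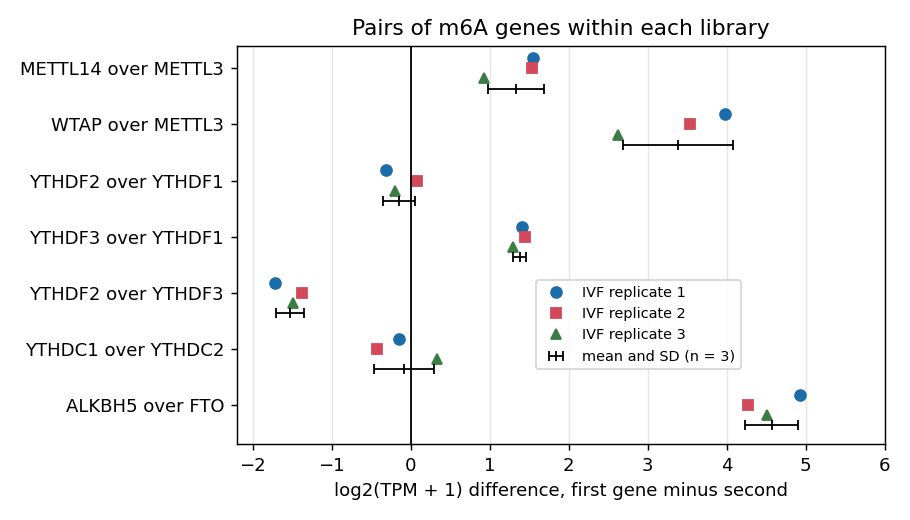
Difference in log2(TPM + 1) between the first and the second gene of each pair, for the 3 IVF libraries (points) with the mean and SD. In 5 pairs all points lie on one side of 0, while YTHDF2 over YTHDF1 and YTHDC1 over YTHDC2 have points on both sides.

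Of the 7 pairs, 5 had the same sign in 3 of 3 libraries. Some pairs share a gene, as those of METTL3 and of the YTHDF genes do, so the pairs are not independent. An exact two-sided sign-flip test over 3 libraries gives no p below 0.25, and it gave 0.25 for these 5 pairs (0.35 after Benjamini-Hochberg adjustment over the 7 pairs, by the same exact test). It gave 0.5 for YTHDF2 against YTHDF1 and 0.75 for YTHDC1 against YTHDC2. With 3 libraries no pair could therefore pass a threshold of 0.05, and the differences are given as values beside their spread.

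In the full order of mean levels, WTAP was followed by ALKBH5, YTHDF3, YTHDC2, YTHDC1, METTL14, YTHDF1, YTHDF2, METTL3 and FTO. Ranges of neighbours in this order did not overlap at 4 of 9 steps: WTAP above ALKBH5, METTL14 above YTHDF1, YTHDF2 above METTL3, and METTL3 above FTO. At the other 5 steps they overlapped. YTHDC1 had a mean 1.04 times that of METTL14 yet was higher in 1 of 3 libraries. Over all 45 pairs of members, 36 had ranges that did not overlap.

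By role, the writers summed to 84.7 ± 22.7 TPM, of which WTAP was the larger part. The YTHDF readers summed to 42.4 ± 3.38 TPM and the erasers to 31.1 ± 4.47 TPM, nearly all of it ALKBH5. As a share of the members' summed TPM, the writers took 45.4, 44.9 and 41.9% in replicates 1, 2 and 3. The YTHDC readers took 12.1, 23.3 and 13.9% in the same order, highest in replicate 2. The shares add up to the whole, so the YTHDF readers (22.3, 18.8 and 27.2%) and the erasers (20.1, 13.0 and 17.0%) had their lowest share in that library. In TPM neither sum was lowest there: the YTHDF readers summed to 39.2, 45.9 and 42.2 TPM and the erasers to 35.2, 31.7 and 26.3 TPM in replicates 1, 2 and 3.

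**Figure D3:**
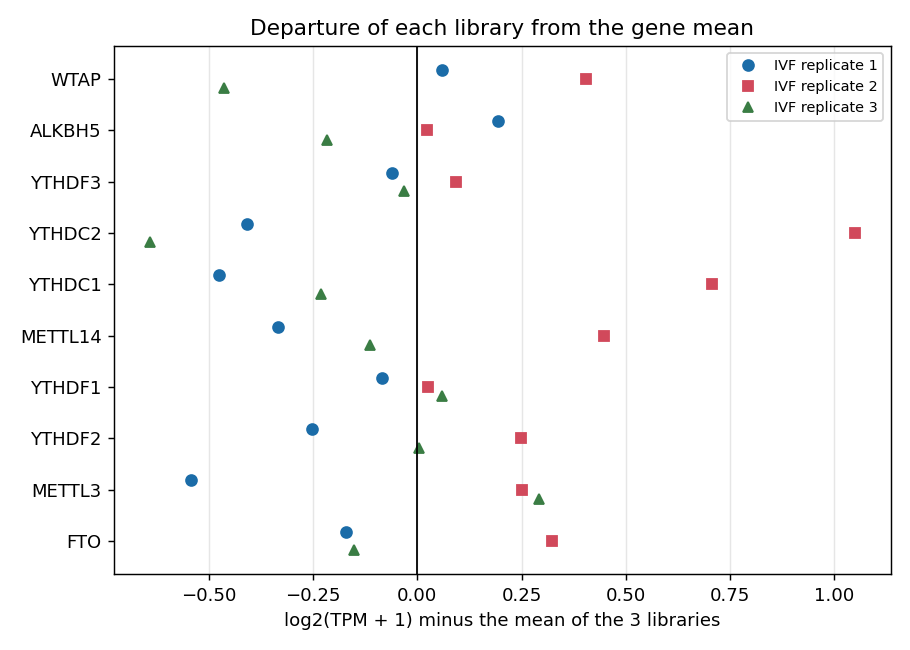
Departure of each IVF library from the mean of the 3 libraries on the log2(TPM + 1) scale, for each m6A gene. Replicate 2 departs farthest upward for YTHDC2 (1.05) and YTHDC1 (0.71), whereas YTHDF1 and YTHDF3 stay within 0.1 of their means.

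Variation between libraries was read against all genes. Of the 9 members with a mean of at least 1 TPM, YTHDC1 and YTHDC2 differed 2-fold or more between their highest and lowest library on the log2(TPM + 1) scale, 2 of 9, against 29.0% of all symbols at that level. The median range was 0.78 for these members and 0.74 for the symbols. Replicate 2 held the highest value for 6 of the 9, against 48.5% of symbols, so the members' count lay near the background. The median symbol itself lay 0.12 above its mean in replicate 2 and 0.11 below it in replicate 3. For all 10 members the median departure was larger, at -0.21, 0.29 and -0.13 in replicates 1, 2 and 3. The 2 sets are unlike, since the symbols had a mean of at least 1 TPM and the 10 members include FTO below it. After libraries were rescaled by the median of ratios, 4 of the 9 (WTAP, METTL14, YTHDC1 and YTHDC2) were highest in replicate 2, against 31.4% of symbols. YTHDC2 kept a range of 1.33 after that rescaling, with 11.8, 27.5 and 10.4 rescaled TPM in replicates 1, 2 and 3. YTHDC1 then fell short of 2-fold, with a range of 0.88.

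Partners of the writers were all present, and one of them matched WTAP in level. All 5 genes of that list had at least 1 TPM in every library. CBLL1, a ring-finger protein of the writer complex, was at 60.1, 82.9 and 52.2 TPM in replicates 1, 2 and 3, a mean of 65.1 ± 15.9 TPM, beside 64.6 ± 19.1 TPM for WTAP. The scaffold VIRMA was at 9.81 ± 3.86 TPM and ZC3H13 at 5.75 ± 3.44 TPM. RBM15, which brings the complex to RNA, was lowest at 2.44 ± 1.02 TPM, with RBM15B at 4.32 ± 1.78 TPM. METTL3 thus lay among the low partners, below VIRMA in mean and above RBM15 in mean.

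Enzymes and cofactors that methylate adenosine at other places were also present, all 6 at 1 TPM or more in every library. METTL16, which acts on a spliceosomal RNA and on MAT2A, was at 3.36, 10.9 and 4.98 TPM in replicates 1, 2 and 3. The ribosomal RNA enzymes METTL5 and ZCCHC4 were at 11.0 ± 4.90 and 4.24 ± 2.28 TPM, and ZCCHC4 was the lowest of the list. TRMT112, a cofactor shared by METTL5 and other methyltransferases, was highest at 1004 ± 224 TPM. PCIF1, which methylates adenosine next to the cap, was at 6.51 ± 0.676 TPM. METTL4 was at 2.24, 11.3 and 3.10 TPM, highest in replicate 2.

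Among readers without a YTH domain, HNRNPA2B1 and RBMX were more abundant than any YTH gene in every library. All 9 had at least 1 TPM in every library, and the median of their means was 42.2 TPM. HNRNPA2B1 was highest at 378 ± 129 TPM, RBMX was at 213 ± 35.0 TPM, and PRRC2A was lowest at 2.96 ± 0.437 TPM. Of the IGF2BP family, IGF2BP3 led at 53.9 ± 20.6 TPM, above IGF2BP1 at 8.83 ± 1.86 TPM and IGF2BP2 at 5.24 ± 1.15 TPM. FMR1 was at 9.64, 47.0 and 9.81 TPM in replicates 1, 2 and 3, a pattern with replicate 2 high. ELAVL1 was at 122, 26.5 and 42.2 TPM, with replicate 1 high instead.

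Genes that supply the methyl donor S-adenosylmethionine were also abundant. MAT2A, which makes it, was at 105 ± 13.9 TPM, and MAT2B at 71.4 ± 12.1 TPM. AHCY, which removes the by-product of methylation, was at 24.9 ± 6.56 TPM. Of the 8 partners of readers all had at least 1 TPM in every library. SRSF3, a splicing factor that binds YTHDC1, was highest at 416 ± 43.0 TPM and the decay helicase UPF1 lowest at 8.03 ± 0.477 TPM. CNOT1, the deadenylase scaffold that YTHDF2 binds, was at 22.0 ± 7.33 TPM. MEIOC, the partner of YTHDC2 in mouse meiosis, was highest in replicate 1, unlike YTHDC2, with 15.5, 11.5 and 7.84 TPM over the 3 libraries in order. Over the 31 genes of these lists, 10 differed 2-fold or more between libraries, or 32.3%, which is near the 29.0% of all symbols given above. Replicate 2 was highest for 20 of the 31, against 48.5% of symbols. That share of symbols was 31.4% after median-of-ratios rescaling, for which no count of the 31 genes is given. Whether their count rests on library scale was therefore not tested.

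**Figure D4:**
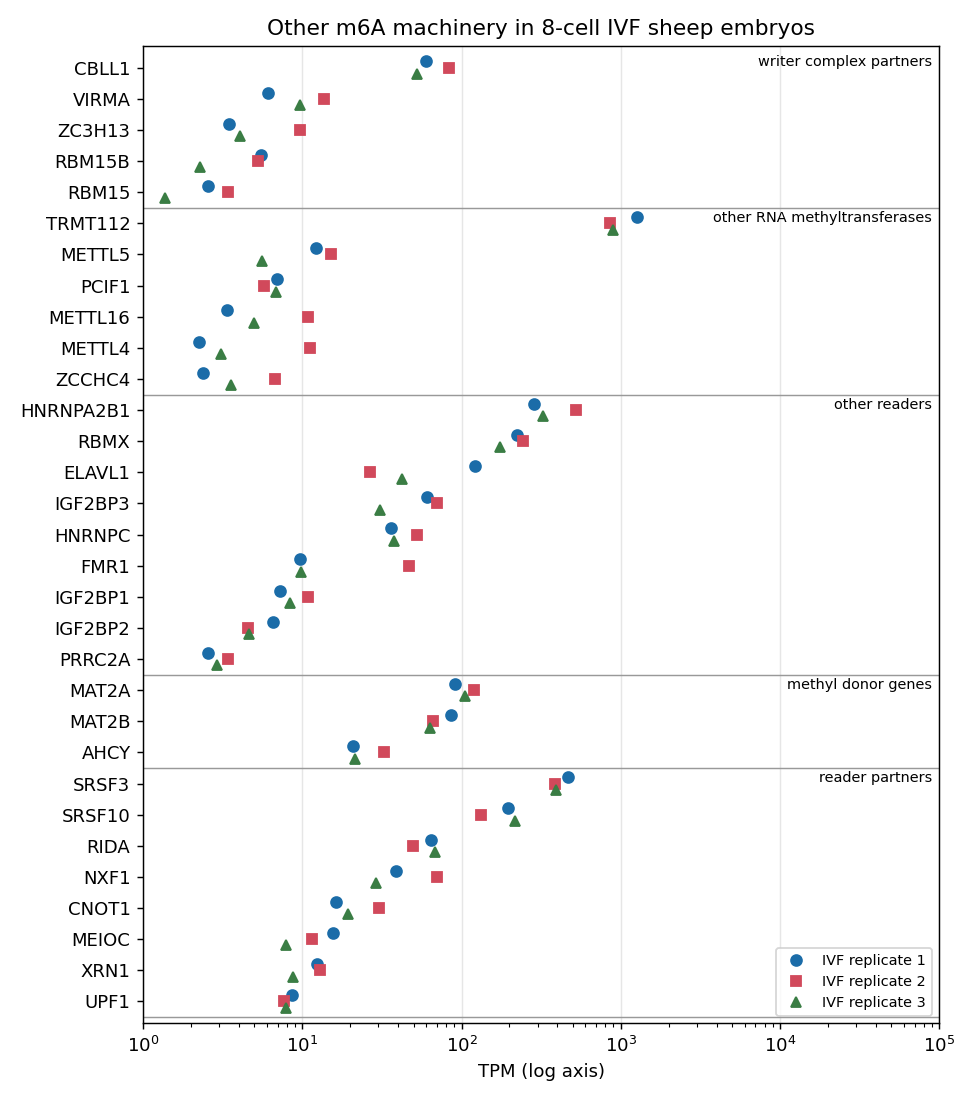
TPM on a log axis of 31 other genes of m6A biology in the 3 IVF libraries, grouped by list and ordered by mean within each. All points lie above 1 TPM, with TRMT112 highest at a mean of 1004 TPM.

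Among 16454 other symbols, those nearest to METTL3 by the largest absolute difference in log2(TPM + 1) over the 3 libraries were SMARCD1 (0.11), SHF (0.13) and RRP8 (0.13). The levels of SMARCD1 were 3.51, 5.80 and 6.58 TPM in replicates 1, 2 and 3. Those nearest to WTAP were RDH10 (0.09), TRIP12 (0.15) and DCTN2 (0.18), with RDH10 at 63.2, 84.9 and 42.5 TPM. These names describe likeness of level alone, over 3 libraries.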

How the data were processed

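PolyA RNA of 8-cell sheep embryos was amplified for 20 PCR cycles and read as paired 150-nucleotide Smart-seq2 reads, per the labels' protocols. The authors deposited TPM, transcript abundance per length scaled to a library total of 1000000. Trimming with fastp 0.23.4 and alignment with HISAT2 2.2.1 come from the submitters' processing notes, which name genome builds of mouse and pig. For sheep, the sources used here do not give the build, the annotation, the counting tool or the use of strand. The labels mention independent trials without tying libraries to them, so p-values measure only the spread between these libraries, part of which may be technical.

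Columns were matched to samples by name. The 3 IVF columns matched, and 4 columns of per-sample values matched no label and were not used. Some of their values were seen while the table was inspected.

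Gene symbols are the 16526 rows with neither a LOC, tRNA nor mitochondrial identifier. Of 31304 rows, 28875 matched the RefSeq gene table ARS-UI_Ramb_v3.0, used only for names and for which genes overlap. Log values are log2(TPM + 1), which understates differences of low genes. Members and gene lists were chosen with earlier results of these data known. Named genes are all members, the highest and lowest gene of each other list, and the 3 symbols nearest METTL3 and WTAP. Further genes of these lists were named after their values were seen. The spread, rescaling and percentile steps were tested on simulated data. The simulated noise was far below the spread of these libraries. That test therefore checked the code, and not how often a spread call in these libraries is in error. Alternatives were other pseudocounts, thresholds, backgrounds and scalings (quantile normalization, median of ratios, and TPM without 131 ribosomal protein and mitochondrially encoded genes), and each library left out in turn. Tools were scipy 1.17.1, numpy 2.4.6, pandas 2.3.3 and matplotlib 3.10.9 under Python 3.11.15.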

Additional observations from a re-analysis of the deposited data

How the results depend on the processing

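No paired analysis was possible because only IVF libraries were analysed. Settings that kept all libraries gave 72 values. Of these, 62 kept their sign, shifted by less than 1 SD between libraries or, for counts, stayed within 1.5 times, and 10 shifted further. The 62 include pairs under other pseudocounts, judged by sign alone. Where a pair had the same sign in every library, no pseudocount could change it, so those values say nothing on robustness. Without mitochondrially encoded and ribosomal protein genes, the summed TPM of every role rose, since the remaining genes share the same total. For the YTHDF readers it was 51.4 against 42.4 and for the erasers 37.6 against 31.1, shifts beyond 1 SD. For the writers it was 102.8 against 84.7 and for the YTHDC readers 40.5 against 33.2. Those shifts were within 1 SD only because the SDs of these 2 roles were larger. The median percentile of the members, 79.2 among gene symbols, was 86.7 among all rows, a background with more silent rows. The 2 members with a 2-fold spread became 1 (YTHDC2) after median-of-ratios rescaling, after quantile normalization and with a pseudocount of 5. With 1 library left out it lay between 0 (without replicate 2) and 2. For YTHDC1 minus YTHDC2, the log2 difference of -0.084 became 0.088 without replicate 2, and its lowest value was -0.290, without replicate 3. For both, the cause was not tested. The count of members highest in replicate 2 under each scaling was chosen after seeing the data. Depth is unknown, so values of FTO in particular cannot be told from sampling loss.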
